A study of Mus musculus with 9 samples.

Results

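The cadherins described here are 10 mouse genes, Cdh1, Cdh2, Cdh3, Cdh4, Cdh6, Cdh8, Cdh9, Cdh10, Cdh11 and Cdh13, out of 18193 genes measured on Affymetrix arrays of sorted retinal cells. All 24 probe sets (groups of oligonucleotides that read 1 transcript) annotated to a single one of these symbols were taken, and the one with the highest mean over the 9 arrays stood for its gene. That choice rests on measured signal, and the family was picked because Cdh11 was already known to be low in the rod-reporter cells, so the values of Cdh11 are given as a description, with no test. The groups, of 3 samples each, were GFP-positive cells of rhoEGFP pups at postnatal day 4 (rhoGFP-positive), GFP-negative cells of the same line and age (rhoGFP-negative) and cells positive for GFP from the pNestin-GFP line on the day of birth, postnatal day 0 (nestinGFP-positive). All mice were on a mixed C57BL/6J-129/Ola background, each sample pooled the retinae of 6 to 8 of them, and the labels call the samples biological replicates. The reporters are those of a rod opsin line and a nestin line, so each positive fraction is defined by GFP and not by a cell type, and the rhoGFP-negative fraction is a mixture.

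Classical cadherins are calcium-dependent adhesion proteins that bind the same or a related cadherin on the neighbouring cell through extracellular repeats. Their cytoplasmic tails bind beta-catenin and p120-catenin, and alpha-catenin links that complex to actin at adherens junctions. In the retina they hold the neuroepithelium together, form the outer limiting membrane between photoreceptors and Müller glia, and help neurites find their layers. Cdh1 to Cdh4 belong to type I, and Cdh6, Cdh8, Cdh9, Cdh10 and Cdh11 to type II. Cdh13, T-cadherin, is not a classical cadherin: it is held in the membrane by a lipid anchor, lacks the catenin-binding tail and binds adiponectin.

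The labels were checked against marker genes. Of 8 measured rod genes, all 8 were called higher in rhoGFP-positive than in rhoGFP-negative cells, and their summed linear signal ran from 40654 to 43302 on rhoGFP-positive, 6483 to 10405 on rhoGFP-negative and 2338 to 6253 on nestinGFP-positive arrays. Of 8 measured progenitor genes all 8 were called lower in rhoGFP-positive cells, with sums of 4317 to 7499 on rhoGFP-positive, 15783 to 26267 on rhoGFP-negative and 28334 to 31338 on nestinGFP-positive arrays. Array medians were 6.08 to 6.17 (log2), correlations between arrays of a group ran from 0.979 to 0.994, and the number of arrays limits the precision. Correlations between groups ran from 0.922 to 0.991 and so overlapped that range. The highest was of rhoGFP-negative replicate 3 with nestinGFP-positive replicate 2, above its 0.984 with rhoGFP-negative replicate 1. The summed signal of cycling markers was 4131, 3748 and 12230 on rhoGFP-negative replicates 1, 2 and 3. The control probe sets for 18S ribosomal RNA averaged 13.6 (log2) on rhoGFP-positive replicate 1, 13.6 on rhoGFP-negative replicate 1, 12.1 on nestinGFP-positive replicate 1 and 9.65 to 10.4 elsewhere. The 3' minus 5' difference of the actin controls, a sign of RNA integrity, was 0.91 ± 0.064 in rhoGFP-positive, 0.65 ± 0.021 in rhoGFP-negative and 0.67 ± 0.30 in nestinGFP-positive samples (log2, SD, n = 3).

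Cdh11, a type II cadherin first known from osteoblasts, had signals of 6.81, 6.25 and 6.87 in rhoGFP-positive samples, against 9.66, 9.19 and 9.74 in rhoGFP-negative and 10.22, 9.55 and 9.45 in nestinGFP-positive samples (RMA signal, log2). Every rhoGFP-positive array lay below every array of both other groups, and those groups overlapped each other. The rhoGFP-positive mean of 6.64 ± 0.34 compared with rhoGFP-negative and nestinGFP-positive means of 9.53 ± 0.30 and 9.74 ± 0.42 (SD, n = 3 each). The difference was -2.89 ± 0.24 (log2, SE) against rhoGFP-negative cells, a 7.39-fold lower signal, and -3.09 ± 0.24 against nestinGFP-positive cells, an 8.54-fold lower one. Between samples of the same replicate number the rhoGFP-positive minus rhoGFP-negative difference was -2.85, -2.94 and -2.87. The other Cdh11 probe set showed the same order at lower signal, with 4.11, 3.69 and 4.18 in rhoGFP-positive, 6.73, 6.16 and 6.53 in rhoGFP-negative and 7.18, 6.68 and 6.86 in nestinGFP-positive samples. In sorted bulk samples, fewer cells that carry a transcript and less of it per cell cannot be told apart.

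**Figure D1:**
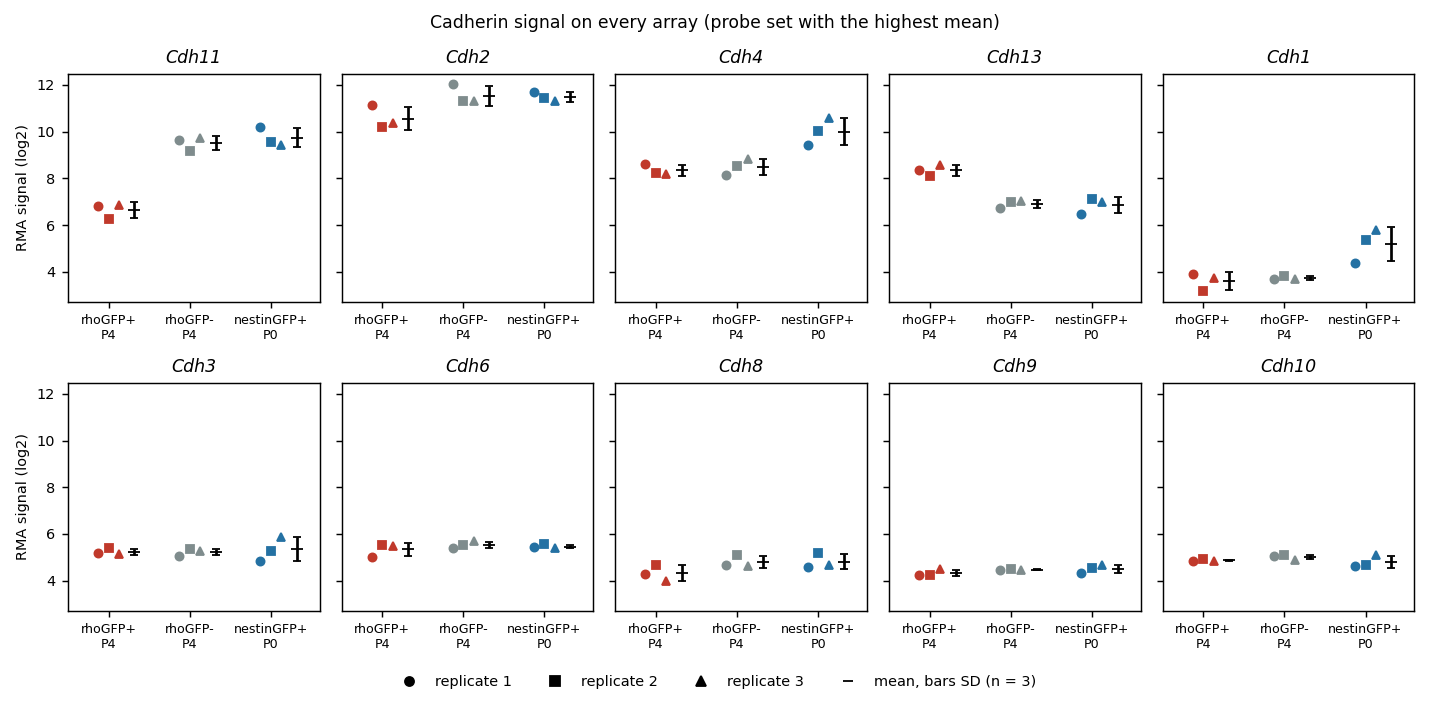
RMA signal (log2, vertical axis) of each of the 10 cadherin genes on each array, by group (rhoGFP-positive P4, rhoGFP-negative P4, nestinGFP-positive P0); symbols mark replicate numbers, bars the mean and SD of 3 samples. Cdh11 and Cdh2 are lowest and Cdh13 is highest in the rhoGFP-positive samples, Cdh4 and Cdh1 are highest in the nestinGFP-positive samples, and the other 5 genes overlap between all groups.

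The 5 genes whose signal followed that of Cdh11 most closely over the 9 arrays, among 9096 ranked, were Pon2 (Pearson r = 0.999), Cnn3 (r = 0.998), Lrrn1 (r = 0.996), Ptprz1 (r = 0.996) and Efhd2 (r = 0.996). Pon2 encodes a paraoxonase, Cnn3 an actin-binding calponin, Lrrn1 a leucine-rich-repeat membrane protein, Ptprz1 a receptor phosphatase of radial glia and Efhd2 a calcium-binding protein. Dmac2 (r = -0.995), Plcd3 (r = -0.994) and Morn1 (r = -0.993) ran most strongly the other way. Pon2 itself averaged 6.05 in rhoGFP-positive, 8.54 in rhoGFP-negative and 8.77 in nestinGFP-positive samples (log2). These correlations describe 9 arrays in 3 groups and mostly restate the gap between the rhoGFP-positive arrays and the rest. Among the other cadherins, Cdh2 (r = 0.853) ran with Cdh11 and Cdh13 (r = -0.951) against it.

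The comparison of the rhoGFP-positive with the rhoGFP-negative cells asks which transcripts differ between cells with and without the rod reporter in retinae of 1 line and age. Among the 9 cadherins other than Cdh11, limma called Cdh13 higher and none lower, at an adjusted p below 0.05 and a log2 difference of at least 1. By the same rule 3.61% of all genes were called higher, 7.32% lower and 10.9% either way. The median log2 difference of the 9 was -0.14, against 0.01 over all genes. Among the 9, Cdh13 lay higher without overlap between the fractions, as did 17.9% of all genes. Cdh2 lay lower without overlap, as did 20.3% (38.2% either way). Cdh11, which led to the choice of the family, also lay lower without overlap.

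Cdh13 had signals of 8.34, 8.11 and 8.57 in rhoGFP-positive samples, against 6.72, 6.98 and 7.05 in rhoGFP-negative samples (log2). The lowest rhoGFP-positive sample lay above every rhoGFP-negative sample. The difference was 1.42 ± 0.19 (log2, SE; limma adjusted p = 0.000398), a 2.68-fold rise, and it was 1.62, 1.13 and 1.52 within replicate numbers. Of the 3 other Cdh13 probe sets, fitted with all probe sets, the next in signal rose by 1.71 ± 0.13 (limma adjusted p = 4.63e-05) and a dimmer one by 1.03 ± 0.22 (limma adjusted p = 0.011). The dimmest stood at 0.27 ± 0.15 with a mean signal of 3.23 and was not called (limma adjusted p = 0.306).

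Cdh2, N-cadherin, the main cadherin of the neural epithelium, had 11.13, 10.18 and 10.37 in rhoGFP-positive samples, against 12.03, 11.29 and 11.29 in rhoGFP-negative samples (log2). The groups did not overlap, and replicate 1 was the highest sample of each. The arrays of rhoGFP-negative replicates 2 and 3 and of nestinGFP-positive replicate 3 hold the same Cdh2 value to 4 decimals. The difference of -0.98 ± 0.27 (log2, SE; limma adjusted p = 0.0249) missed the 2-fold minimum, so Cdh2 was not called. Its other probe set, with 10.07, 9.85 and 10.09 in rhoGFP-positive against 11.29, 10.97 and 11.45 in rhoGFP-negative samples, was called lower, at -1.23 ± 0.16 (limma adjusted p = 0.000813). The mean of both probe sets was also called (-1.11, limma adjusted p = 0.00179), as was the chosen probe set without the replicate 1 arrays of all groups (-1.02, limma adjusted p = 0.00168).

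The 7 other cadherins had differences between -0.47 and 0.01 (log2) on their chosen probe sets, which overlapped between the fractions. A dimmer Cdh10 probe set did not overlap, with 4.10, 4.32 and 4.14 in rhoGFP-positive against 4.54, 4.74 and 4.73 in rhoGFP-negative samples (-0.48 ± 0.11, limma adjusted p = 0.013), and stayed under the 2-fold minimum. Dimmer probe sets of Cdh6 (-0.26 ± 0.23, limma adjusted p = 0.542) and Cdh3 (0.09 ± 0.11, limma adjusted p = 0.669) did not overlap either and were not called. Cdh8, which marks a bipolar cell type in mouse, stood at 4.32 ± 0.35 in rhoGFP-positive and 4.78 ± 0.26 in rhoGFP-negative samples (SD, n = 3), and the difference of -0.47 ± 0.22 was not called (limma adjusted p = 0.176). Within replicate numbers Cdh8 was lower in all 3 pairs (-0.36, -0.40 and -0.63), and with the replicate block its adjusted p was 0.0076 by limma, still under the 2-fold minimum. Cdh4, R-cadherin, named for the retina, averaged 8.34 ± 0.24 in rhoGFP-positive and 8.50 ± 0.34 in rhoGFP-negative samples (-0.15 ± 0.28, limma adjusted p = 0.772). Markers of several other cell types were lower in the same samples as Cdh11 and Cdh2: limma called lower 8 of 8 progenitor, 7 of 7 cycling, 6 of 7 amacrine, 5 of 8 Müller, 4 of 10 endothelial and mural, 3 of 8 ganglion and 3 of 8 bipolar genes. The bipolar list was mixed, since its gene Prkca was called higher (1.51 ± 0.13, limma adjusted p = 2.65e-05). The median differences were -2.26 for progenitor, -2.21 for cycling, -2.30 for amacrine and -1.43 for Müller genes (log2). The amacrine sum was 1744 to 4082 on rhoGFP-positive and 3969 to 9516 on rhoGFP-negative arrays. It includes Slc6a9, the brightest gene of its list on rhoGFP-positive arrays, which was not lower there (0.61 ± 0.32, limma adjusted p = 0.229). The endothelial and mural sum was 785 to 1041 on rhoGFP-positive and 3202 to 4632 on rhoGFP-negative arrays. That last sum rests on the called genes Kdr, Cldn5, Col4a1 and Col4a2. The other 6 genes of its list were not called, among them Pecam1 (0.10), Cdh5 (0.01) and Tie1 (0.06), and the list median was -0.09 (log2). The Müller sum was 2340 to 2911 on rhoGFP-positive and 8214 to 10152 on rhoGFP-negative arrays, while the Müller water channel gene Aqp4 was low throughout, at 4.74 and 4.66. Their part in the cadherin differences, and that of the actin 3' minus 5' difference, was not tested.

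**Figure D2:**
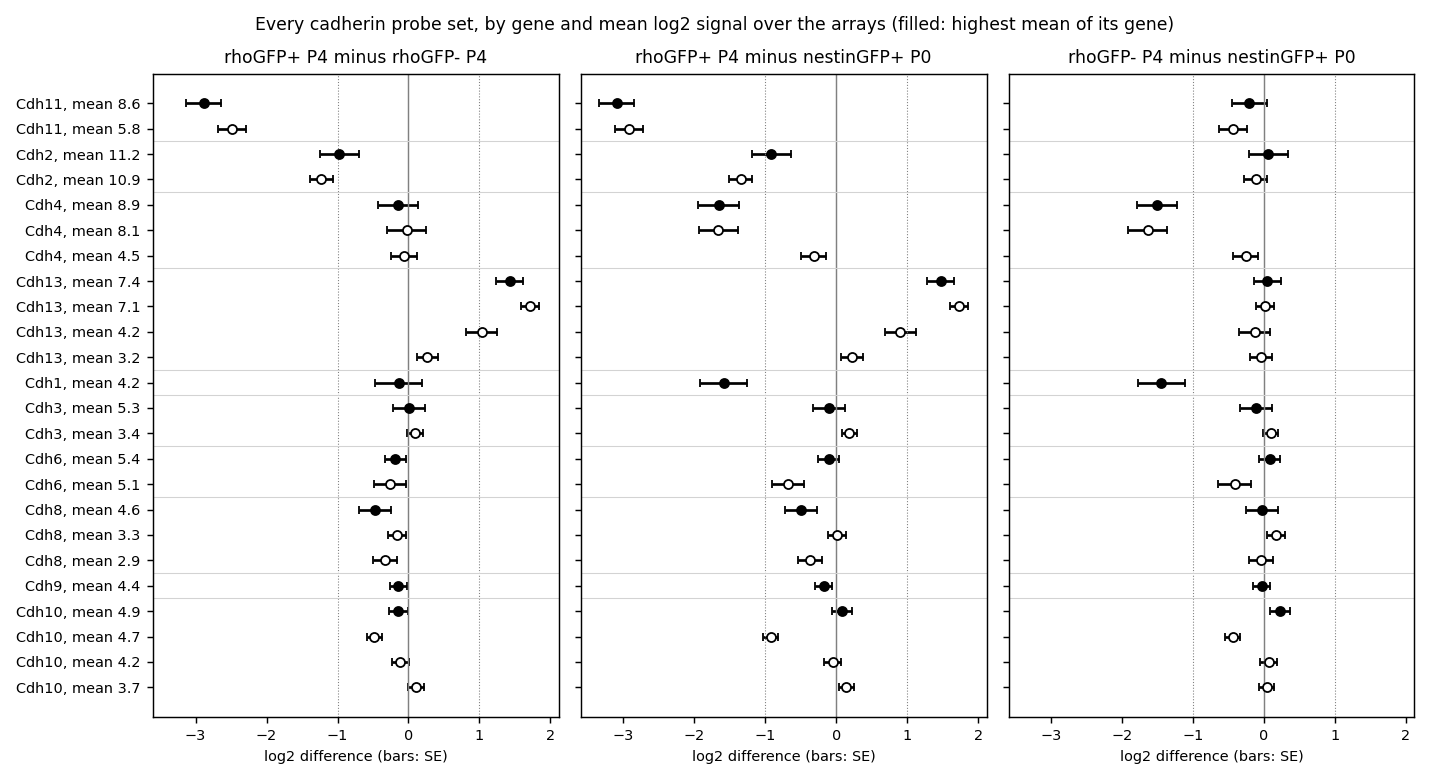
Log2 difference (horizontal axis, bars SE) of every probe set of the 10 cadherins in each comparison, labelled by gene and mean log2 signal, with filled points for the probe set that represents its gene and dotted lines at -1 and 1. Both Cdh11 and both Cdh2 probe sets lie left of 0 in the 2 rhoGFP-positive comparisons, all 4 of Cdh13 lie right of it, and the 2 brighter Cdh4 probe sets lie left of -1 in both comparisons with the nestinGFP-positive cells.

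Set against the nestinGFP-positive cells of newborn pups, the rhoGFP-positive cells differ in more than the reporter. Age, line and population differ together and cannot be told apart, and the comparison shares its rhoGFP-positive samples with the one above. Of the 9 cadherins, limma called Cdh13 higher and Cdh1 and Cdh4 lower, where 15.6% of all genes were called, 5.06% higher and 10.5% lower. The median of the 9 was -0.18 (log2), against 0.06 over all genes. Among the 9, Cdh13 lay higher without overlap between the groups, as did 24.4% of all genes. Cdh1, Cdh2 and Cdh4 lay lower without overlap, as did 23.4% (47.8% either way). Cdh11, which led to the choice of the family, also lay lower without overlap.

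Cdh4 had 8.62, 8.24 and 8.17 in rhoGFP-positive samples, against 9.44, 10.01 and 10.57 in nestinGFP-positive samples (log2). The difference of -1.66 ± 0.28 (SE; limma adjusted p = 0.00108) was a 3.16-fold fall. In the same comparison 8 of 8 progenitor, 7 of 7 cycling and 6 of 7 amacrine markers were called lower. The median differences were -2.98, -3.62 and -3.18 (log2). The amacrine list was mixed, since its gene Slc6a9 was called higher (2.01 ± 0.32, limma adjusted p = 0.000805). The part of these markers in the fall of Cdh4 was not tested. A second Cdh4 probe set gave -1.66 ± 0.27 (limma adjusted p = 0.00177), and the third, at a mean signal of 4.46, gave -0.32 ± 0.18 with no call. The lowest nestinGFP-positive sample for Cdh4, replicate 1, was the one of that group with the high 18S signal (12.1). The actin difference was 0.40, 0.61 and 0.99 in nestinGFP-positive replicates 1, 2 and 3, and so rose in the same order as Cdh4. Its part in the fall was not tested. The fall of Cdh4 was -2.08 without the replicate 1 arrays of all groups.

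Cdh1, E-cadherin, the main cadherin of epithelia, had 3.91, 3.15 and 3.73 in rhoGFP-positive samples, against 4.38, 5.38 and 5.79 in nestinGFP-positive samples (log2). The groups did not overlap, and nestinGFP-positive replicate 1 stood nearest to the rhoGFP-positive samples. Over the nestinGFP-positive replicates Cdh1 too rose in the order of the actin difference. Cdh1 was called at -1.59 ± 0.32 (SE; limma adjusted p = 0.00339), but it has 1 probe set and its rhoGFP-positive signal is at the low end of the array, so no fold is given. Pigment epithelium markers gave sums of 737 to 799 on rhoGFP-positive and 503 to 578 on nestinGFP-positive arrays, with 2 of 8 called higher in the rhoGFP-positive cells and the defining gene Rpe65 at 5.33 and 5.13.

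Cdh13 rose by 1.47 ± 0.19 (log2, SE; limma adjusted p = 0.000201), with 6.48 to 7.12 in the nestinGFP-positive samples, all below the lowest rhoGFP-positive sample. Cdh2, with 11.69, 11.45 and 11.29 there, was at -0.92 ± 0.27 (limma adjusted p = 0.0239), short of the 2-fold minimum, while its other probe set was called at -1.35 ± 0.16 (limma adjusted p = 0.000284). One of the 3 other Cdh10 probe sets, with 4.10, 4.32 and 4.14 in rhoGFP-positive against 5.06, 5.17 and 5.09 in nestinGFP-positive samples, was at -0.92 ± 0.11 (limma adjusted p = 0.000229), below the 2-fold minimum. The brightest Cdh10 probe set was at 0.08 ± 0.14 (limma adjusted p = 0.675), so the Cdh10 probe sets disagree. Cdh8 stood at -0.50 ± 0.22 and the rest, Cdh3, Cdh6 and Cdh9, between -0.18 and -0.11, none called. Dimmer probe sets of Cdh6 (-0.68 ± 0.23, limma adjusted p = 0.0553) and Cdh8 (-0.37 ± 0.17, limma adjusted p = 0.141) lay lower without overlap. A dimmer Cdh3 probe set lay higher without overlap (0.19 ± 0.11, limma adjusted p = 0.24), and none of these was called.

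The rhoGFP-negative and the nestinGFP-positive cells also differ in age, line and population together, and their comparison shares samples with both others. Of the 9 cadherins limma called Cdh4 lower and none higher, where 0.989% of all genes were called, 0.605% lower and 0.385% higher. Of the 10 genes, Cdh1 and Cdh4 did not overlap and lay lower, as did 8.79% of all genes, and none lay higher, where 11.8% of all genes did. Cdh4 had 8.14, 8.53 and 8.83 in rhoGFP-negative samples, against 9.44, 10.01 and 10.57 in nestinGFP-positive samples (log2). The difference was -1.51 ± 0.28 (SE; limma adjusted p = 0.0304), a 2.84-fold fall. In the fit of all probe sets the second Cdh4 probe set was called (-1.64 ± 0.27, limma adjusted p = 0.0424). The chosen probe set was not called in that fit (limma adjusted p = 0.0535), nor was the third (-0.26 ± 0.18, limma adjusted p = 0.583). The call of Cdh4 was lost on leaving out any of 6 single arrays: rhoGFP-positive replicates 2 (adjusted p = 0.0621) and 3 (0.0534), rhoGFP-negative replicates 1 (0.111) and 2 (0.0909) and nestinGFP-positive replicates 2 (0.117) and 3 (0.0756), with differences of -1.22 to -1.52. It was also lost with the 6 compared arrays fitted alone (limma adjusted p = 0.0896). The progenitor, cycling and amacrine markers had median differences of -0.81, -1.35 and -0.97 (log2) here, and their part in the fall of Cdh4 was not tested.

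Cdh1 had 3.70, 3.84 and 3.67 in rhoGFP-negative samples, against 4.38, 5.38 and 5.79 in nestinGFP-positive samples (log2). It missed the threshold, at -1.45 ± 0.32 (SE; limma adjusted p = 0.0538), and passed it with the replicate block (limma adjusted p = 0.0151) and without nestinGFP-positive replicate 1 (-1.85, limma adjusted p = 0.0109). With the block 2 of the 9 cadherins and 453 genes in all were called, against 1 and 180 without it. Cdh2 (0.06 ± 0.27, limma adjusted p = 0.932) and Cdh13 (0.05 ± 0.19, limma adjusted p = 0.92) stood close together in these groups, and Cdh11 was at -0.21 ± 0.24. In Cdh11, Cdh2 and Cdh13 alike, the rhoGFP-negative and nestinGFP-positive levels are neighbours that overlap; in Cdh4 it is the 2 fractions of the rhoEGFP line that overlap.

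Of the 10 genes, 6 had a mean signal below the 40th percentile of all genes: Cdh1, Cdh3, Cdh6, Cdh8, Cdh9 and Cdh10. The table has no detection calls, and RMA compresses low signals, so that their differences are understated and weak expression cannot be told from background. Cdh3, P-cadherin, ranged from 4.86 to 5.89 over the 9 arrays, Cdh6 from 5.03 to 5.68, Cdh9 from 4.24 to 4.65 and Cdh10 from 4.62 to 5.10 (log2). In mouse, Cdh8 and Cdh9 direct different bipolar cell types to their layers, and Cdh6, Cdh9 and Cdh10 mark direction-selective circuits. The chosen and the next probe set lay closest in Cdh10, with mean signals of 4.89 and 4.65, Cdh13, with 7.37 and 7.07, Cdh6, with 5.45 and 5.14, and Cdh2, with 11.2 and 10.9; in Cdh11 they were 8.64 and 5.79.

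Several of these genes are neighbours among the protein-coding genes of RefSeq's GRCm38.p6 annotation. Cdh11 lies between Cdh8 and Cdh5, Cdh3 next to Cdh1, and Cdh9 between Cdh6 and Cdh10. Cdh11 had no test, so a pattern shared with it could not pass one. Cdh5, the cadherin of endothelium, averaged 4.56, 4.55 and 4.53 in rhoGFP-positive, rhoGFP-negative and nestinGFP-positive samples (log2). Cdh8 was not called in any comparison, though within replicate numbers it was lower in rhoGFP-positive than in rhoGFP-negative samples (-0.36, -0.40 and -0.63). Cdh3 was not called where Cdh1 was.

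The other 69 measured genes of the cadherin superfamily and its junctions, taken from 7 lists, were fitted with all genes. In rhoGFP-positive against rhoGFP-negative cells, 2 rose and 14 fell, or 23.2%, beside 10.9% of all genes. In rhoGFP-positive against nestinGFP-positive cells 3 rose and 21 fell, or 34.8%, beside 15.6%. In rhoGFP-negative against nestinGFP-positive cells 1 rose and 4 fell, or 7.25%, beside 0.989%. The lists were written with results of these data known, so these shares are descriptions.

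Among 7 other classical cadherins, Cdh22 fell in rhoGFP-positive cells, with 6.33, 6.65 and 6.36 there against 8.13, 8.62 and 8.41 in rhoGFP-negative samples (log2 difference -1.94 ± 0.22 SE, limma adjusted p = 0.000155). Against nestinGFP-positive cells Cdh22 (-2.38 ± 0.22) and Cdh20 (-1.85 ± 0.21) both fell. The rest of this list, Cdh5, Cdh7, Cdh15, Cdh18 and Cdh19, was not called in any comparison. The list median was -0.07 against rhoGFP-negative and -0.06 against nestinGFP-positive cells.

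Of 10 catenins and their binding partners, 4 fell in rhoGFP-positive against rhoGFP-negative cells: Ctnnd2 (-2.21 ± 0.12, limma adjusted p = 3.24e-06), Ctnna2 (-1.91 ± 0.30, limma adjusted p = 0.00125), Arvcf (-1.21) and Pkp4 (-1.06), with a list median of -0.71. Ctnnd2 and Ctnna2 encode the neural delta- and alpha-catenins, and Arvcf and Pkp4 relatives of p120-catenin. Ctnnd2 had 7.38, 7.06 and 7.42 in rhoGFP-positive samples, against 9.41, 9.50 and 9.57 in rhoGFP-negative and 10.53, 10.54 and 10.63 in nestinGFP-positive samples (log2). All 3 groups were apart, and Ctnnd2 was the catenin called in each comparison, also in rhoGFP-negative against nestinGFP-positive cells (-1.07 ± 0.12, limma adjusted p = 0.00586). The widely expressed members, singled out after their values were seen, were not called: beta-catenin, Ctnnb1, stood at 12.8 in rhoGFP-positive and 13.0 in rhoGFP-negative samples (-0.17 ± 0.11, limma adjusted p = 0.31), and alpha-catenin, Ctnna1, at 10.7 and 11.1 (-0.35 ± 0.17, limma adjusted p = 0.202). Jup, plakoglobin (-0.75 ± 0.12), and Vcl, vinculin (0.64 ± 0.10), had adjusted p values of 0.001 and 0.00099 by limma, with differences under the 2-fold minimum.

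The rises among the other cadherin superfamily and protocadherin genes were in Cdhr1, the cadherin at the base of photoreceptor discs, and Pcdh15, a protocadherin of the Usher complex. Cdhr1 had 13.14, 13.35 and 13.12 in rhoGFP-positive samples, against 11.44, 11.50 and 11.13 in rhoGFP-negative samples (log2 difference 1.85 ± 0.21 SE, limma adjusted p = 0.000158). Pcdh15 rose by 2.23 ± 0.40 (limma adjusted p = 0.00247). Falls in the same comparison were in the large planar-polarity cadherins Fat1 (-1.90 ± 0.27), Fat4 (-1.29), Celsr1 (-1.19) and Dchs1 (-1.06), 4 of 24 genes in that list, and in 4 of 12 protocadherins, Pcdh19 (-2.32 ± 0.17), Pcdh8 (-1.72 ± 0.18), Pcdh11x (-1.54) and Pcdh7 (-1.31). The list medians were -0.01 and -0.72. Against nestinGFP-positive cells 7 of the 12 protocadherins fell and the median was -1.36, and in that comparison Clstn1 rose beside Cdhr1 and Pcdh15. Fat4 held the same value, 7.25, on all 3 rhoGFP-negative arrays.

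Of 5 repressors of cadherin genes known from epithelial cells, Zeb2 fell in rhoGFP-positive cells (-1.74 ± 0.24 against rhoGFP-negative, limma adjusted p = 0.000488), while Snai1, Snai2, Zeb1 and Twist1 were not called. Of 5 nectin and afadin genes, Nectin3 fell against nestinGFP-positive cells, with means of 8.25 in rhoGFP-positive and 9.25 in nestinGFP-positive samples (log2; limma adjusted p = 0.00346), and 0 of the 5 were called in the other comparisons. None of 6 measured genes of cadherin processing, among them the sheddase Adam10, was called by limma in any comparison.

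**Figure D3:**
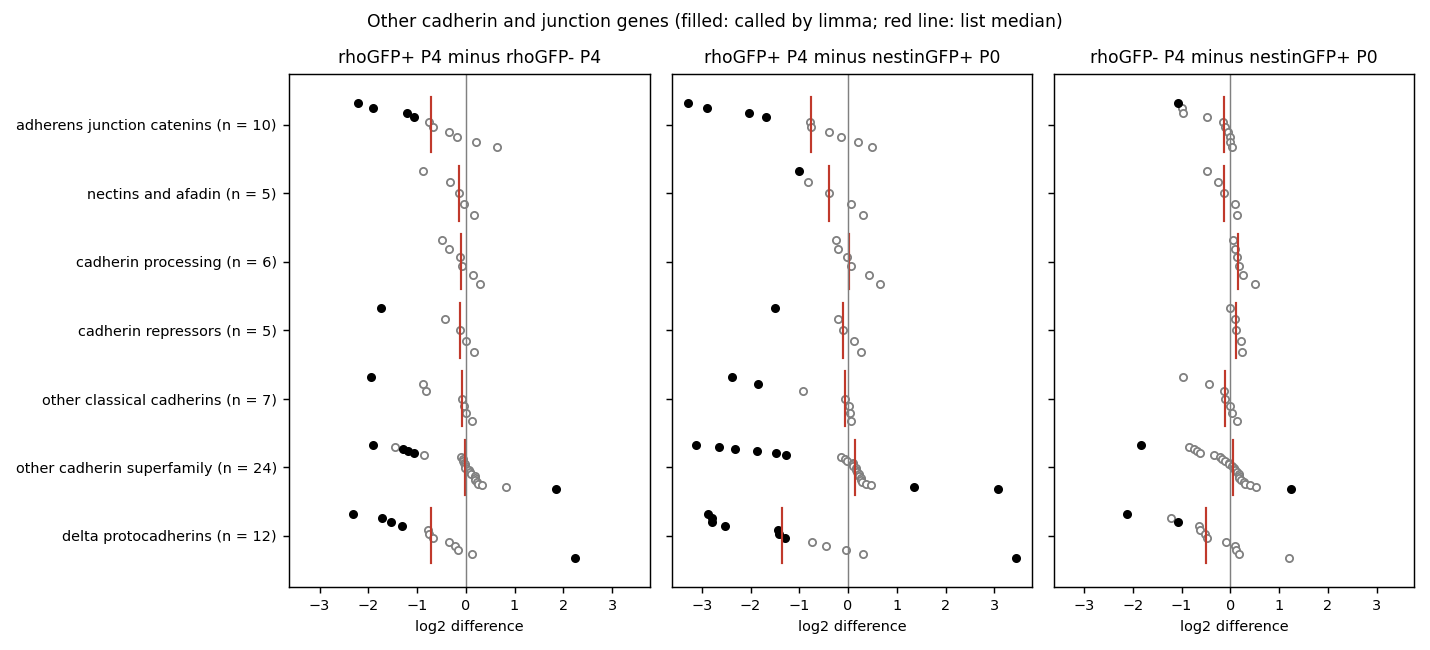
Log2 difference (horizontal axis) of the 69 other cadherin and junction genes in each comparison, 1 point per gene, grouped by list, with filled points for genes called by limma and a red line at each list's median. Most filled points lie left of 0, and the filled points right of it are Pcdh15, Cdhr1 and, against nestinGFP-positive cells, Clstn1.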

How the data were processed

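RNA from the 9 sorted samples was read on Affymetrix arrays. Per the submitters' processing notes, the authors ran RMA (version not given), and the deposited values are log2. RMA subtracts a modelled background, equalises the distributions of the arrays and combines the probes of a set. Of 45037 probe sets other than controls, 34945 had 1 gene symbol, 34741 of them updated through Entrez IDs. Taking the brightest probe set of each gene left 18193 genes, with no filter on low values.

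One limma fit (version 3.58.1, R 4.3.3) of all 9 arrays estimated 3 group means, with two-sided tests from eBayes. P-values were adjusted by Benjamini-Hochberg over the 18193 genes, or over the 45037 probe sets where other probe sets of a gene are described. Calls needed an adjusted p under 0.05 together with a log2 difference of 1 or more in size. The steps were tested on simulated data, and figures were drawn with matplotlib 3.10.9. The members and gene lists were chosen with earlier results of these data known. Named genes are the members, called genes of the lists (at most the 3 largest each way) and the genes nearest to Cdh11 in correlation; further genes of a list and genes not called were singled out after their values were seen.

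Replicate numbers recur across groups. Residuals of arrays with the same number correlated at 0.45 to 0.62 within the rhoEGFP line, against -0.49 to 0.07 for different numbers. For rhoGFP-negative with nestinGFP-positive arrays the same-number range, 0.15 to 0.54, overlapped the different-number range, -0.39 to 0.22. For rhoGFP-positive with nestinGFP-positive arrays the same-number range was -0.01 to 0.52, with -0.45 to 0.39 for different numbers. No label states a pairing, and the main fit used none, so its p-values and calls are unpaired. Replicate numbers were used for the differences given within numbers and for the replicate block, an alternative that added the number to the fit. Alternatives covered normalization, the probe set rule, dim genes, the replicate block, thresholds and left-out arrays.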

Additional observations from a re-analysis of the deposited data

How the results depend on the processing

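In rhoGFP-positive against nestinGFP-positive cells the number of cadherins called among the 9 stayed at 3 to 4 on leaving out single arrays. Against rhoGFP-negative cells it was 1, and 2 with the mean of probe sets, with no minimum difference, without the replicate 1 arrays of all groups (added after seeing the data), and on leaving out rhoGFP-positive replicate 1 or rhoGFP-negative replicate 2 or 3 (range 1 to 2), each time by the addition of Cdh2. In rhoGFP-negative against nestinGFP-positive cells the count of 1 became 2 after quantile normalization, with the replicate block, with trend and robust eBayes and without the replicate 1 arrays, 0 with only the 6 arrays compared and at an adjusted p below 0.01, and 0 to 2 on leaving out single arrays. There the count of all genes, 180, was 28 with the 6 arrays, 453 with the block, 370 with no minimum difference, 23 at an adjusted p below 0.01 and 19 to 559 on leaving out single arrays. The 5 calls among the 69 other genes became 1 with the 6 arrays, 1 at an adjusted p below 0.01 and 1 to 7 on leaving out single arrays. With no minimum difference 4417 genes were called between the rhoGFP fractions and 6508 between rhoGFP-positive and nestinGFP-positive cells. The cause of these shifts was not tested. Cdh13 kept its rise in both rhoGFP-positive comparisons under all alternatives run on the gene's value (1.08 to 1.60) and on the next probe set (1.71 and 1.73); its 2 dimmer probe sets were not called against nestinGFP-positive cells and the dimmest was not called against rhoGFP-negative cells. Beyond Cdh1 the block changed no call of a cadherin. Low signal without detection calls limits what can be said of 6 of the 10 genes.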
